A study of Homo sapiens with 10 samples.

Results

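MYC and 35 genes of ribosome biogenesis were followed in human lung cancer cells that differ in their response to discodermolide, a microtubule-stabilising natural product from a marine sponge. The genes were taken from a named list of 36, and each was read from the probe set that the platform annotation assigns to it, using the one with the highest mean where a gene had several. Of the 36, 33 were measured as single genes among 18279 genes tested. NOP56 had only a probe set shared with other genes, and GNL3 and EBNA1BP2 had no probe set under their names, so no level is given for these. The 4 groups were compared on 10 Affymetrix arrays, 1 array per sample, and all were grown in RPMI with 10% FBS. AD32 4E-BP1 (n = 1), labelled sensitive, received 0.01% DMSO and carries the name of the translational repressor encoded by EIF4EBP1. AD32 (n = 3), labelled resistant, was grown in 32 nM discodermolide. A549 in discodermolide (n = 2), labelled senescent, received 32 nM of the drug, and A549 in DMSO (n = 4), labelled sensitive, received 0.01% DMSO. A549 is a lung adenocarcinoma line. The labels number the samples as biological replicates without saying how they were grown apart, and they give neither the hours of treatment nor how the AD32 lines were derived, so drug and line cannot be told apart in AD32.

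Ribosomes are built in the nucleolus. RNA polymerase I transcribes a long precursor of the ribosomal RNAs, small nucleolar RNPs guide its methylation and pseudouridylation, and successive complexes of assembly factors cut, fold and export the small and large subunits. MYC is a transcription factor that binds E-box sequences in the promoters of many of these genes, and it also raises transcription by RNA polymerases I and III. Translation control meets this pathway at the cap: 4E-BP1 binds eIF4E and holds back cap-dependent translation until mTOR phosphorylates it, and mRNAs that begin with a run of pyrimidines, those of the ribosomal proteins above all, depend most on mTOR.

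The E-box CACGTG was searched in RefSeq promoter windows of the GRCh38.p14 assembly, from 250 bases before to 50 bases after the first listed transcription start. The motif reads alike on both strands. Windows were found for 29 of the 36 genes (none for MYC, NOP58, BOP1, NOLC1, RRP1B, RRP12 and POLR1E). CACGTG stood in 12 of the 29, or 41.4%, against 8.89% of 14197 windows of the same length over all genes tested. The share was 36% in other ribosome biogenesis genes, 37.1% in MYC target genes outside the nucleolus and 4.76% in ribosomal protein genes. The mean GC content was 62.2% in the members and 61.8% over all genes, and the mean number of CpG was 26.4 and 21.9. Of the 12 matches, 11 began between 20 bases before and 40 bases after the start. The stretches below, each read along the gene's strand with the E-box in capitals, show this sequence and its place in every member that holds it.
FBL, chr19:39846358-39846383, minus strand: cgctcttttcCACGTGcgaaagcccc
NOP2, chr12:6568242-6568266, minus strand: gtccggattgCACGTGgagggccgc
NOP14, chr4:2963376-2963401, minus strand: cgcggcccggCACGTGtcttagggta
PES1, chr22:30591882-30591907, minus strand: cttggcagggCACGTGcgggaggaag
RRP9, chr3:51941894-51941919, minus strand: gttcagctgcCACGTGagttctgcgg
UTP20, chr12:101280085-101280110, plus strand: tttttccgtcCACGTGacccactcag
WDR43, chr2:28894660-28894685, plus strand: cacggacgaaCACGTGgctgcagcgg
RCL1, chr9:4792938-4792963, plus strand: tgttccaaacCACGTGgacgcgtctg
BYSL, chr6:41921517-41921542, plus strand: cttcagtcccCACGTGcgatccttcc
EBNA1BP2, chr1:43172792-43172817, minus strand: tattgttggcCACGTGggatcgaaga
MRTO4, chr1:19251809-19251834, plus strand: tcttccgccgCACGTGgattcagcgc
NAT10, chr11:34105604-34105629, plus strand: tgcgcttgcgCACGTGctgtctacca
The match in EBNA1BP2 lay farthest from the start, at position -237 counted from the start. A match describes these letters and not a bound site.

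The other sequence of interest lies at the start of the transcript, where a C followed by at least 4 further C or T was counted as a pyrimidine start. It was found in 4 of the 29 members, or 13.8%, against 4.58% over all genes tested and 43 of 63 ribosomal protein genes, or 68.3%. The first 20 transcribed bases are shown for these 4, with the opening pyrimidines in capitals, beside RPL31 and RPL12, a pair of ribosomal protein genes described below.
FBL, chr19:39846360-39846379, minus strand: CTTTTCCacgtgcgaaagcc
NPM1, chr5:171387849-171387868, plus strand: CTTTCCCTggtgtgattccg
DDX21, chr10:68956170-68956189, plus strand: CTCTTCCTCTCCacgcggtt
EBNA1BP2, chr1:43172551-43172570, minus strand: CCTCCCCCggggtcctcctc
RPL31, chr2:101002289-101002308, plus strand: CTTCCTTTCCaacttggacg
RPL12, chr9:127451387-127451406, minus strand: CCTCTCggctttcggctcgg
In FBL the pyrimidine start and the E-box overlap. The members thus had a larger share with an E-box and a smaller share with a pyrimidine start than the ribosomal protein genes, and these differences were not tested.

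**Figure D1:**
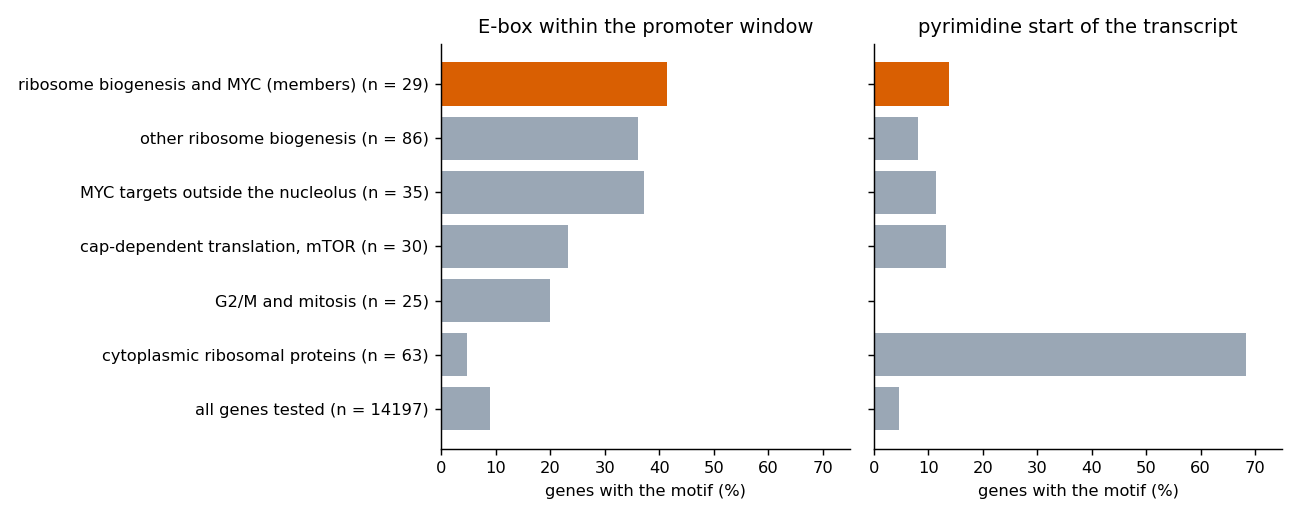
Bars give the percentage of genes in each list whose promoter window holds CACGTG (left) or whose first listed transcript begins with a C and at least 4 more pyrimidines (right), with the number of windows in brackets. The members reach 41.4% for the E-box and 13.8% for the pyrimidine start, against 4.76% and 68.3% for the cytoplasmic ribosomal protein genes.

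Not every array resembled its own group. The array labelled AD32 4E-BP1 correlated best with A549 DMSO replicate 2 (r = 0.995 across genes), and SERPINB5 and KRT7, chosen after their values were seen, stood there at 3.92 and 7.35, against 9.49 to 10.83 and 11.74 to 11.84 in AD32 and 3.68 to 4.26 and 7.00 to 7.40 in A549 in DMSO. It is therefore called the array labelled AD32 4E-BP1. AD32 replicate 3 correlated best with that array (r = 0.979), above its own group (0.951 to 0.958), and A549 DMSO replicate 1 correlated best with A549 discodermolide replicate 1 (r = 0.976), above its own group (0.948 to 0.954). A549 DMSO replicates 3 and 4 were nearly alike (r = 0.997). They were counted as 2 samples, as labelled. The keratins KRT8 and KRT18 were at 12.67 or more on all arrays, whereas EPCAM, another epithelial marker, was at or below 3.87, under every array's lower quartile (4.77 to 4.94). PTPRC of leukocytes, DCN of fibroblasts and PECAM1 of endothelium were at or below 4.75 on all arrays. Other markers on these lists were higher, with CD68 of macrophages at 8.34 to 10.71, and COL1A1, COL1A2 and PDGFRB of fibroblasts at 7.69 to 8.16, 5.66 to 6.16 and 5.30 to 6.06. CDH1, a cadherin of epithelia, rose in AD32 against A549 in DMSO by 1.11 ± 0.25 (SE; adjusted p = 0.0357, with 0.00155 to 0.141 over the alternatives), and COL3A1, a fibrillar collagen, fell by 2.08 ± 0.33 (SE; adjusted p = 0.00789, with 0.000682 to 0.0414). In A549 in discodermolide against A549 in DMSO, CDH1 differed by 0.92 ± 0.29 (SE; adjusted p = 0.276) and COL3A1 by -0.34 ± 0.38 (SE; adjusted p = 0.837). AD32 minus A549 in discodermolide was 0.20 ± 0.30 (SE) for CDH1 and -1.75 ± 0.40 (SE) for COL3A1. The part of these marker genes in the differences below was not tested.

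The ribosome biogenesis genes differed between arrays of 1 group by as much as between groups. Averaged over the 32 measured genes other than MYC, the log2 signal was 9.90 on the array labelled AD32 4E-BP1, and 9.01, 9.23 and 9.83 in AD32. It was 9.28 and 9.11 in A549 in discodermolide, and 8.81, 9.90, 10.09 and 10.04 in A549 in DMSO. One array of each larger group thus lay at the level of another group. A549 DMSO replicate 1 was the lowest of its 4 arrays for 33 of 33 members, against 35.2% of all genes, and AD32 replicate 3 was the highest of its 3 arrays for 28 of 33, against 31.5%. The members on A549 DMSO replicate 1 were a median of 1.13 below the mean of the other 3 arrays (from UTP20, -2.09, to MYC, -0.13), where the median over all genes was 0.04. On AD32 replicate 3 they were a median of 0.74 above the mean of the other 2 arrays, from -1.48 for UTP15 to 1.64 for UTP20, against -0.05 over all genes.

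Proliferation genes moved with the same arrays. The mean of 29 genes of G2/M and mitosis was 9.91 on the array labelled AD32 4E-BP1 and 5.44, 6.46 and 9.75 in AD32. It was 6.71 and 6.95 in A549 in discodermolide and 6.91, 9.97, 10.10 and 10.06 in A549 in DMSO. MKI67, the antigen of cycling cells, was at 10.55 on the array labelled AD32 4E-BP1, at 5.51, 5.87 and 9.93 in AD32, at 6.90 on both arrays of A549 in discodermolide and at 6.42, 10.63, 9.88 and 9.90 in A549 in DMSO. The same arrays were low for the mitotic and the ribosome biogenesis genes, and the part of proliferation in the differences below was not tested. Nor can fewer cells with a transcript be told apart from less of it per cell.

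**Figure D2:**
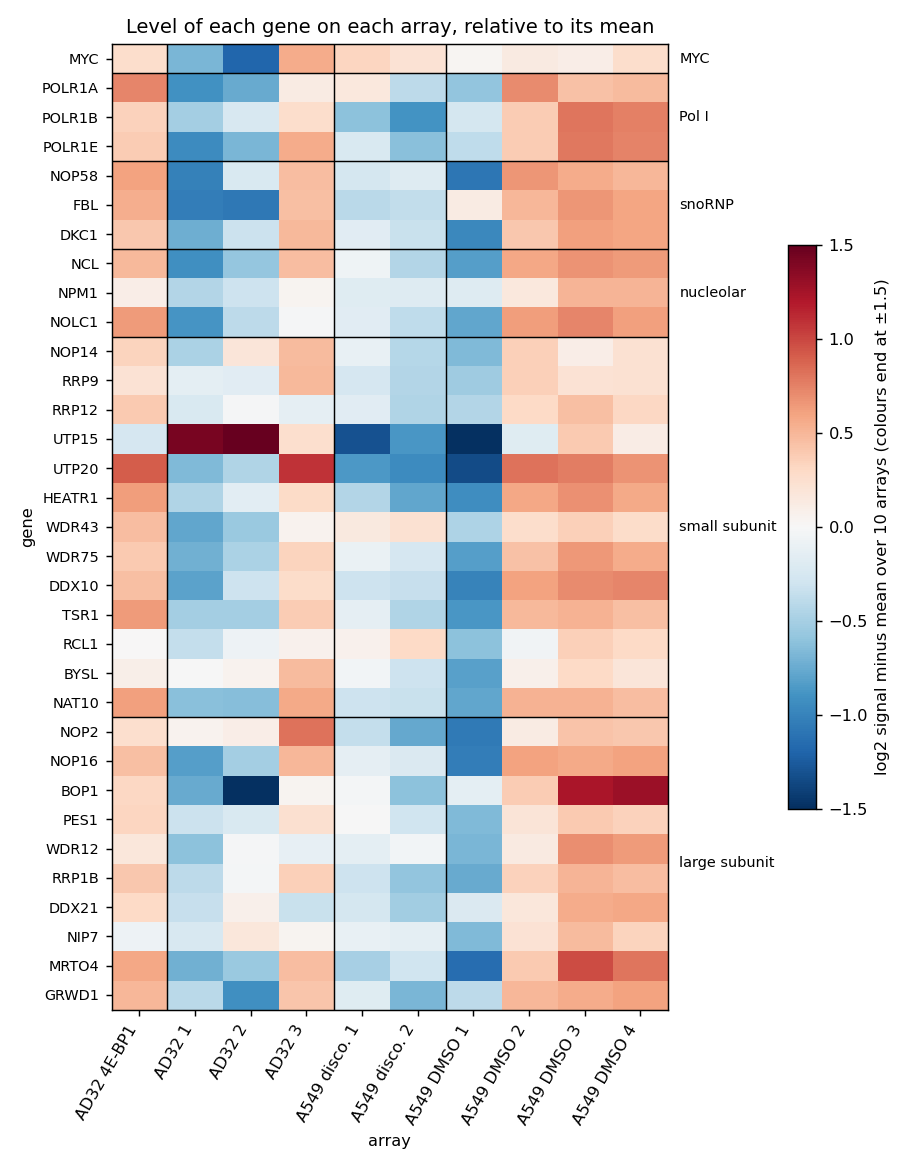
Each cell is the log2 signal of a measured gene (rows, by role) on an array (columns, with lines between the groups) minus the gene's mean over the 10 arrays. A549 DMSO replicate 1 is blue for nearly every gene and AD32 replicate 3 is red for most, while UTP15 is highest on AD32 replicates 1 and 2.

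**Figure D3:**
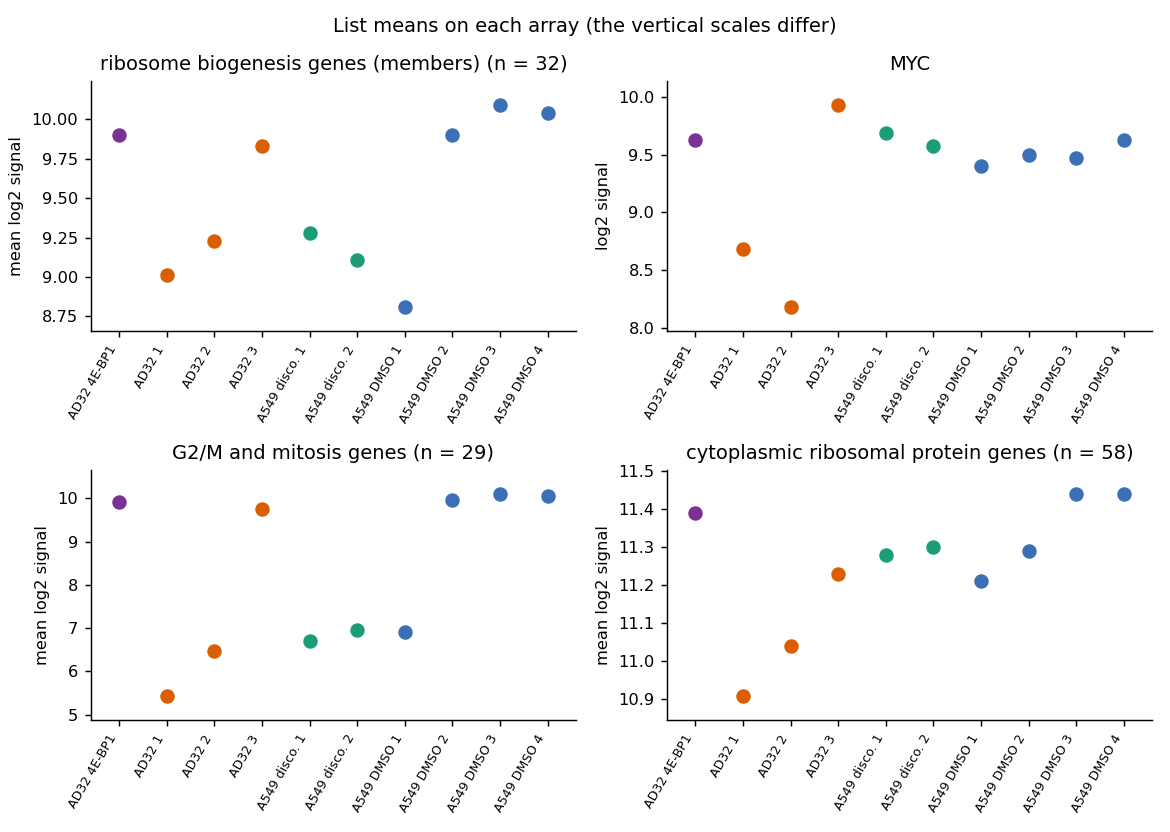
Points give, for each array, the mean log2 signal of the 32 measured ribosome biogenesis genes, of 29 mitotic genes and of 58 ribosomal protein genes, and the level of MYC, with colours for the 4 groups. AD32 replicate 3 (9.83) and A549 DMSO replicate 1 (8.81) stand apart from their groups for ribosome biogenesis as they do for the mitotic genes (9.75 and 6.91), and MYC is low only on AD32 replicates 1 and 2.

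Resistant AD32 cells were compared with A549 in DMSO to ask how the line growing in the drug differed from the sensitive line. Most ribosome biogenesis genes had a lower mean in AD32, but none of the 33 members passed the test (limma, adjusted p under 0.05 after Benjamini-Hochberg over all genes), against 5.72% of all genes. The mean was lower for 29 of 33, against 48.2% of all genes, and the median difference was -0.45, against 0.01. At an unadjusted p under 0.05, 3 members were lower (background 8.49%) and 1 was higher (11.2%). No member had all its AD32 arrays below the range of A549 in DMSO, against 6.48% of genes, or all above it, against 8.90%. The AD32 arrays of MYC lay on both sides of that range.

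Leaving out single arrays changed these counts. Without A549 DMSO replicate 1, 9 members were called lower (NPM1, BOP1, NOLC1, RRP12, HEATR1, DDX21, DDX10, POLR1A and POLR1B) against 6.14% of all genes. Without AD32 replicate 3, 4 were called lower (MYC, FBL, BOP1 and POLR1E) against 4.45%, and UTP15 was called higher against 6.30%. With arrays weighted by how well they fit their group (0.184 for A549 DMSO replicate 1 and 0.339 for AD32 replicate 3, against 4.64 for A549 DMSO replicate 4), 22 members were called lower against 11.9%, and UTP15 higher against 11.1%. BOP1 is the member called lower under both omissions, which left out arrays already seen to stand apart for these genes. Omitting AD32 replicate 1 or 2, or A549 DMSO replicate 2, 3 or 4, left 0 members called, with 512 to 745 called of all 18279 genes.

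MYC itself set AD32 replicates 1 and 2 apart. Its log2 signal was 9.63 on the array labelled AD32 4E-BP1 and 8.68, 8.18 and 9.93 in AD32. It was 9.69 and 9.58 in A549 in discodermolide and 9.40, 9.50, 9.47 and 9.63 in A549 in DMSO. A549 DMSO replicate 1, low for every other member, was within 0.13 of its group for MYC. AD32 averaged 8.93 ± 0.90 (SD, n = 3) and A549 in DMSO 9.50 ± 0.09 (SD, n = 4), a difference of -0.56 ± 0.34 (SE; adjusted p = 0.433). Without AD32 replicate 3, the adjusted p was 0.00598, in a range of 0.00598 to 0.867 over the alternatives tried. A549 in discodermolide differed from A549 in DMSO by 0.14 ± 0.39 (SE; adjusted p = 0.949), so MYC showed no detectable difference there while 30 of the other 32 means were lower.

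Among the RNA polymerase I subunits, POLR1A encodes the largest, catalytic one. Its signal was 9.80 on the array labelled AD32 4E-BP1 and 8.16, 8.31 and 9.19 in AD32, then 9.22 and 8.67 in A549 in discodermolide and 8.47, 9.77, 9.50 and 9.54 in A549 in DMSO. AD32 replicates 1 and 2 were the lowest arrays, with A549 DMSO replicate 1 next. AD32 minus A549 in DMSO was -0.76 ± 0.35 (SE; adjusted p = 0.277). POLR1B, the other large subunit and chosen after its values were seen, was at 8.87 on the array labelled AD32 4E-BP1, at 8.02, 8.29 and 8.79 in AD32, at 7.91 and 7.63 in A549 in discodermolide and at 8.26, 8.91, 9.33 and 9.28 in A549 in DMSO. Here both senescent arrays lay below all others. POLR1E, a subunit that stabilises initiation, averaged 8.80 ± 0.80 in AD32 (SD, n = 3) and 9.53 ± 0.54 in A549 in DMSO (SD, n = 4). All 3 subunits had lower means in AD32 than in A549 in DMSO, with a median of -0.74.

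The small nucleolar RNP proteins include FBL, the methyltransferase of the box C/D particles, NOP58, a core protein of the same particles, and DKC1, the pseudouridine synthase of the box H/ACA particles. FBL was at 11.06 on the array labelled AD32 4E-BP1, at 9.48, 9.44 and 10.97 in AD32, at 10.11 and 10.14 in A549 in discodermolide and at 10.64, 11.01, 11.18 and 11.11 in A549 in DMSO. Both senescent arrays lay below the lowest A549 DMSO array and AD32 replicates 1 and 2 lay lower still, whereas AD32 replicate 3 lay within the A549 DMSO range. AD32 minus A549 in DMSO was -1.02 ± 0.35 (SE; 2.03-fold lower, adjusted p = 0.134, with 0.00124 to 0.409 over the alternatives). NOP58 and DKC1 differed by -0.42 and -0.35 in the same comparison, with adjusted p of 0.728 and 0.753.

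NPM1, NCL and NOLC1 are abundant nucleolar proteins that act as chaperones for ribosomal proteins, precursor RNA and nucleolar RNPs. NPM1 was at 12.64 on the array labelled AD32 4E-BP1, at 12.11, 12.24 and 12.59 in AD32, at 12.36 and 12.35 in A549 in discodermolide and at 12.35, 12.70, 13.06 and 13.05 in A549 in DMSO. Its range was narrow and every AD32 array lay below A549 DMSO replicates 2 to 4. AD32 minus A549 in DMSO was -0.48 ± 0.20 (SE; adjusted p = 0.222). NCL, chosen after its values were seen, was at 12.11 on the array labelled AD32 4E-BP1, at 10.70, 11.04 and 12.09 in AD32, at 11.56 and 11.18 in A549 in discodermolide and at 10.79, 12.20, 12.29 and 12.26 in A549 in DMSO. It shows the common pattern of the members, with AD32 replicate 3 near A549 DMSO replicates 2 to 4 and A549 DMSO replicate 1 near AD32.

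Small-subunit factors held the member that went the other way. UTP15 belongs to the part of the small-subunit processome that is also needed for transcription of ribosomal DNA. Its signal was 8.64 on the array labelled AD32 4E-BP1 and 10.32, 10.94 and 9.15 in AD32. It was 7.59 and 8.02 in A549 in discodermolide and 7.28, 8.71, 9.28 and 9.0 in A549 in DMSO. AD32 replicates 1 and 2 were the highest arrays, and AD32 replicate 3 lay within the range of A549 in DMSO. AD32 minus A549 in DMSO was 1.57 ± 0.52 (SE; 2.98-fold higher, adjusted p = 0.129, with 0.0195 to 0.399 over the alternatives). UTP20, a large scaffold protein of the same processome chosen after its values were seen, had the widest spread within groups. It was at 9.51 on the array labelled AD32 4E-BP1, at 7.93, 8.15 and 9.68 in AD32, at 7.74 and 7.65 in A549 in discodermolide and at 7.26, 9.41, 9.36 and 9.27 in A549 in DMSO. Its levels thus split the arrays as the mitotic genes did. The 250 bases before each start are given for this pair because AD32 replicate 3 was the highest AD32 array for UTP20 and the lowest for UTP15.
UTP20, chr12:101279855-101280104, plus strand: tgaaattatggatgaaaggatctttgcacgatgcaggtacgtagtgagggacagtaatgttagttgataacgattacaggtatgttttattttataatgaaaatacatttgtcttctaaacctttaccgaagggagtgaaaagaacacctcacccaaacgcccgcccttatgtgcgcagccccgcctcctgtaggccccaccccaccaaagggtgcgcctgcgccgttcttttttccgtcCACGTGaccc
UTP15, chr5:73565493-73565742, plus strand: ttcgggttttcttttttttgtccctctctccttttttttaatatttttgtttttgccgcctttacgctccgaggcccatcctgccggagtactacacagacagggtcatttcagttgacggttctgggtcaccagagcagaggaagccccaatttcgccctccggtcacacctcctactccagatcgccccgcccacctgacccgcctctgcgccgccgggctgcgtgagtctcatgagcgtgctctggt
UTP20 carries CACGTG (capitals) 10 bases before its start, and the letters do not occur in the window of UTP15. Of the 33 measured members, 30 were higher on AD32 replicate 3 than the mean of AD32 replicates 1 and 2. They include NCL (by 1.22), without CACGTG in its window, and NAT10 (by 1.20), with it. A link between these letters and the levels was not tested.

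The remaining small-subunit factors differed less than UTP15 between AD32 and A549 in DMSO. They ranged from -0.54 for DDX10, a helicase, to 0.24 for BYSL, a late assembly factor, and UTP20 differed by -0.23. HEATR1, WDR43 and WDR75, which act with UTP15 in the processome, differed by -0.33, -0.53 and -0.50. RRP9, a protein of the U3 particle, TSR1, a factor of the late small subunit, and NAT10, which acetylates ribosomal RNA, differed by -0.01, -0.37 and -0.41. NOP14, RRP12 and RCL1 differed by 0.06, -0.28 and -0.12. Counting UTP15 and UTP20, 10 of 13 means were lower in AD32, with a median of -0.28.

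Of the large-subunit factors, BOP1 forms a complex with PES1 and WDR12 that is needed for processing of the large-subunit RNA. BOP1 was at 9.21 on the array labelled AD32 4E-BP1, at 8.15, 7.22 and 8.94 in AD32, at 8.87 and 8.28 in A549 in discodermolide and at 8.75, 9.28, 10.12 and 10.19 in A549 in DMSO. AD32 replicate 2 was the lowest array and A549 DMSO replicates 3 and 4 were the highest. AD32 minus A549 in DMSO was -1.48 ± 0.46 (SE; 2.79-fold lower, adjusted p = 0.104, with 0.00254 to 0.329 over the alternatives), the largest negative difference among the members. A second BOP1 probe set gave means of 8.2 in AD32 and 9.27 in A549 in DMSO. Its partners PES1 and WDR12 differed by -0.17 and -0.45, so the 3 members of the complex did not share 1 size of difference, although the differences between them were not tested.

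NOP2, a methyltransferase of the large-subunit RNA chosen after its values were seen, was at 10.13 on the array labelled AD32 4E-BP1, at 9.93, 9.97 and 10.69 in AD32, at 9.52 and 9.11 in A549 in discodermolide and at 8.81, 10.00, 10.30 and 10.28 in A549 in DMSO. It was the only large-subunit factor with a higher mean in AD32 than in A549 in DMSO, by 0.35 ± 0.37 (SE; adjusted p = 0.712), and without A549 DMSO replicate 1 the highest difference of the group was 0.00. The helicase DDX21 differed by -0.48, and GRWD1, a chaperone of a ribosomal protein, by -0.62. MRTO4, NOP16, RRP1B and NIP7, named after yeast factors of ribosome assembly, differed by -0.53, -0.47, -0.16 and -0.10. Altogether 9 of 10 means were lower, with a median of -0.46.

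**Figure D4:**
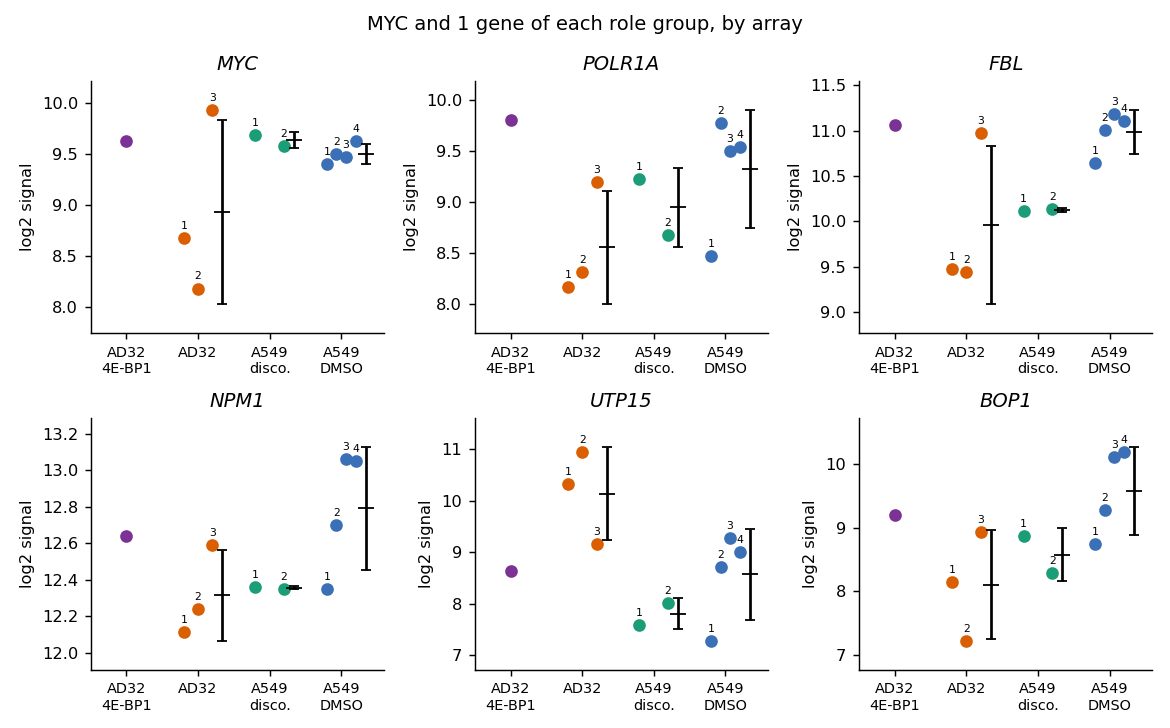
Points give the log2 signal of MYC and of the gene with the smallest p of each role group in AD32 against A549 in DMSO, by group and with replicate numbers, and black bars give the mean ± SD where a group has over 1 array. AD32 replicate 3 lies at or near the A549 DMSO arrays for MYC (9.93), FBL (10.97) and UTP15 (9.15), while AD32 replicates 1 and 2 lie apart.

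Senescent A549 cells in discodermolide were compared with A549 in DMSO to describe the response of the sensitive line to the drug. The means of 30 of 33 members were lower, against 46.0% of all genes, with a median of -0.47, against 0.02. MYC, WDR43 and RCL1 were the 3 with higher means. None of the 33 passed the test, against 0.372% of all genes, and 2 members, DDX21 and POLR1B, were lower at an unadjusted p under 0.05, against 2.88%. POLR1B was 1.17 ± 0.32 (SE) log2 units lower in discodermolide, or 2.26-fold (adjusted p = 0.194, with 0.000384 to 0.832 over the alternatives), and DDX21 was 0.66 ± 0.25 (SE) lower (adjusted p = 0.364). FBL, DDX21 and POLR1B had both senescent arrays below all 4 arrays of A549 in DMSO, a pattern of 7.71% of genes. Without A549 DMSO replicate 1, RRP12, HEATR1 and POLR1B were called lower, against 0.990% of all genes. With array weights, 27 of 33 were called lower, against 10.2%. These weights were 0.184 for A549 DMSO replicate 1, and 2.92 and 4.64 for replicates 3 and 4, which were nearly alike. With replicates 3 and 4 averaged and no weights, 0 members were called, against 15 of all 18279 genes.

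AD32 was set against A549 in discodermolide because both were in 32 nM of the drug. The members divided, with 20 of 33 means higher in AD32, against 50.7% of all genes, and a median of 0.08, against 0.01. This balance turned under other settings, with 12 of 33 higher without AD32 replicate 3 (median -0.23) and 12 of 33 with array weights (median -0.05). None passed the test, against 3.74% of all genes, and UTP15 alone was past an unadjusted p of 0.05, against 5.77% higher. UTP15 was 2.33 ± 0.63 (SE) log2 units higher in AD32, or 5.03-fold (adjusted p = 0.0851, with 0.00288 to 0.421 over the alternatives), and its 3 AD32 arrays all lay above both senescent arrays. So did those of NOP2, RRP9, UTP20, POLR1B and BYSL, in all 6 members against 14.4% of genes. WDR43 had all AD32 arrays below both senescent arrays, against 18% of genes. MYC was 0.70 ± 0.41 (SE) log2 units lower in AD32 (adjusted p = 0.503), and without AD32 replicate 3 the adjusted p was 0.00988, in a range of 0.00988 to 0.886, against 3.36% of all genes called lower. UTP15 was called higher without AD32 replicate 3 (2.56% of all genes) and without A549 DMSO replicate 1 (2.19%), and with array weights UTP15 was called higher (3.74%) and WDR43 lower (6.48%). This comparison and the first share the AD32 arrays, and the first 2 share those of A549 in DMSO, so they are not independent.

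**Figure D5:**
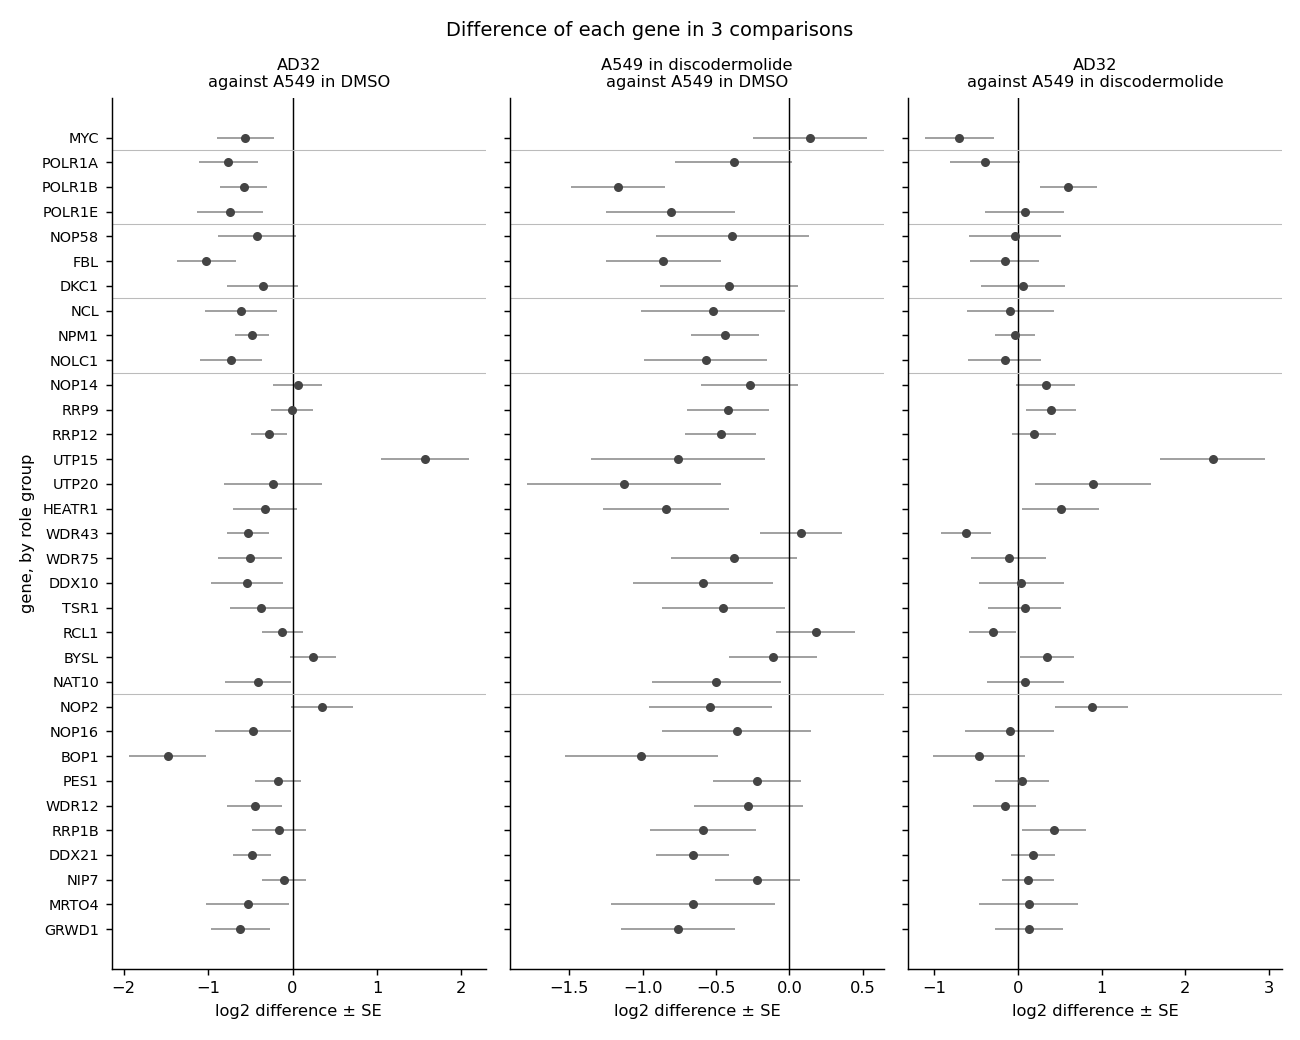
Points give the log2 difference of each measured gene with its SE as a line, in AD32 against A549 in DMSO, in A549 in discodermolide against A549 in DMSO and in AD32 against A549 in discodermolide, on scales that differ between panels. Most points lie below 0 in the first and middle panels, with UTP15 at 1.57 and -0.76, and they lie on both sides of 0 in the last, where UTP15 reaches 2.33.

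The array labelled AD32 4E-BP1 links the members to translation control by its name. EIF4EBP1 was at 11.61 on it, at 8.93, 7.99 and 8.63 in AD32, at 9.76 and 9.58 in A549 in discodermolide and at 10.23, 9.50, 9.47 and 9.52 in A549 in DMSO. The repressor's transcript was thus highest on that array and lowest in AD32, in which the ribosome biogenesis genes averaged less than on that array and than in A549 in DMSO. A549 in discodermolide did not follow this order: its 32 ribosome biogenesis genes had the lowest mean of the groups, 9.19 against 9.36 in AD32 and 9.71 in A549 in DMSO, while its EIF4EBP1 averaged 9.67, against 9.68 in A549 in DMSO. AD32 minus A549 in DMSO was -1.16 ± 0.26 (SE; adjusted p = 0.0326, with 0.00401 to 0.108 over the alternatives). A549 DMSO replicate 1 had the highest EIF4EBP1 and the lowest members of its group. AD32 replicate 3, highest for the mean of the members in its group, was in the middle for EIF4EBP1. A link between EIF4EBP1 and the members was not tested, and the arrays give no level of the 4E-BP1 protein.

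Against AD32, the array labelled AD32 4E-BP1 was higher for 29 of 33 members, against 46.2% of all genes, with a median of 0.69, against -0.03. None passed the test, against 0.919% of all genes. WDR43 and POLR1A were past an unadjusted p of 0.05, against 4.2% higher, at 0.89 ± 0.38 and 1.24 ± 0.53 (SE). Without AD32 replicate 3, MYC and FBL were called higher, against 1.32% of all genes, and with array weights FBL, WDR43 and POLR1A were, against 3.24%. It lay above all 3 AD32 arrays for 21 members, against 23.9% of genes, and below them for UTP15, against 27.7%. Against A549 in DMSO, 28 of 33 members were higher, against 49.2% of all genes, and the median was 0.22, or -0.06 without A549 DMSO replicate 1. No member was called, against 0.0% of all genes by limma, and none was past an unadjusted p of 0.05, where 0.706% of genes were higher and 0.432% lower. MYC, UTP20, WDR43, POLR1A, TSR1 and NAT10, or 18.2% of the members, lay above all 4 arrays of A549 in DMSO. This share is near the 15.1% of all genes. MYC rounded to 9.63 both there and on A549 DMSO replicate 4. The lone array was assumed to vary like the other groups, and it had the A549 levels of SERPINB5 and KRT7 given above. Its cells were in 0.01% DMSO, whereas AD32 was in 32 nM discodermolide. Against AD32, 4E-BP1 therefore cannot be told apart from the absence of the drug, nor in either comparison from the rest of that culture.

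Other genes of the pathway were read from lists chosen with earlier results of these data known. Over all genes tested in AD32 against A549 in DMSO, 2.19% were called lower and 3.52% higher, and the median difference was 0.01. A single call in a list of this size is not a result about the list. Among 97 other ribosome biogenesis genes measured, AD32 against A549 in DMSO had a median of -0.12, with 1 called lower and 1 higher, both shares below those of all genes. UTP18, of the small-subunit processome, fell by 1.37 ± 0.24 (SE) log2 units in AD32 (adjusted p = 0.0113, with 0.000198 to 0.052 over the alternatives). It was at 7.61, 8.09 and 7.93 in AD32 and at 8.6, 9.34, 9.54 and 9.52 in A549 in DMSO, without overlap, and so AD32 replicate 3 stayed with its group. DDX24, a helicase, rose by 0.79 ± 0.19 (SE; adjusted p = 0.0428, with 0.00589 to 0.157). Of 18 further RNA polymerase I genes, TAF1D, a subunit of its promoter selectivity factor, fell by 0.81 ± 0.16 (SE; adjusted p = 0.0214, with 0.00201 to 0.0903), and the list's median was -0.13. The 21 measured RNA polymerase III genes had a median of -0.04 and no call.

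Ribosomal protein genes, the main carriers of the pyrimidine start, had lower means in AD32 by a smaller median than the members. Of 58 measured as single genes, 51 had lower means in AD32 than in A549 in DMSO, against 48.2% of all genes, the median was -0.25, and 4 were called, all lower, against 2.19% of all genes. These were RPL7 (-0.69, adjusted p = 0.0178), RPL12 (-0.85, 0.0355), RPL30 (-0.67, 0.0459) and RPL31 (-0.65, 0.0466), each with all AD32 arrays below all arrays of A549 in DMSO. RPL31 was at 10.27, 10.32 and 10.85 in AD32, at 11.43 and 11.48 in A549 in discodermolide and at 11.14, 11.01, 11.18 and 11.18 in A549 in DMSO. In A549 in discodermolide against A549 in DMSO, the list's median was -0.05 with no call, beside -0.47 for the members. Each of the 4 calls was lost under at least 1 alternative, with adjusted p up to 0.0667 for RPL7, 0.120 for RPL12, 0.138 for RPL30 and 0.169 for RPL31. Probe sets of ribosomal proteins can share sequence with their many pseudogenes, so these values are uncertain.

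Among genes of cap-dependent translation and mTOR signalling, 31 were measured, and their median was 0.14 in AD32 against A549 in DMSO, with 2 called higher and EIF4EBP1 lower. EIF4E3, a cap-binding relative of eIF4E, rose by 2.28 ± 0.23 (SE; adjusted p = 0.000714, with 3.9e-05 to 0.00752 over the alternatives). MKNK2, a kinase that phosphorylates eIF4E, rose by 1.23 ± 0.21 (SE; adjusted p = 0.0116, with 0.000356 to 0.0517). It differed by a like amount in A549 in discodermolide against A549 in DMSO, 1.26 ± 0.24 (SE; adjusted p = 0.0758). Between AD32 and A549 in discodermolide the MKNK2 difference was -0.03 ± 0.26 (SE; adjusted p = 0.98). EIF4E itself differed by 0.17 ± 0.16 (SE; adjusted p = 0.678). Its signal was low, at 5.22 to 5.75 over all arrays, beside lower quartiles of 4.77 to 4.94, so a change could have been missed. PDCD4, an inhibitor of the eIF4A helicase, was 1.20 ± 0.25 (SE) lower in AD32 than in A549 in discodermolide (adjusted p = 0.0315, with 0.00588 to 0.223).

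The MYC network list, 20 genes measured, had a median of 0.19 in AD32 against A549 in DMSO and 1 call: MLXIPL, a glucose-sensing relative of MYC's partners, rose by 1.15 ± 0.27 (SE; adjusted p = 0.0376, with 0.000766 to 0.149). Of 37 MYC target genes outside the nucleolus, 28 had lower means, with a median of -0.27. BCAT1, an enzyme of branched-chain amino acid metabolism, was the 1 called, at 8.12, 7.60 and 5.53 in AD32 and 9.66, 9.33, 9.88 and 9.79 in A549 in DMSO. It fell by 2.58 ± 0.51 (SE; adjusted p = 0.0205, with 0.00126 to 0.0671), and AD32 replicate 3, which had the highest MYC, had the lowest BCAT1.

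Defects in ribosome assembly are known to stabilise p53 through free ribosomal proteins that bind MDM2, so genes of p53 and its surveillance of ribosome assembly were read beside the members. Of 7 measured, 3 had higher and 4 lower means in AD32 against A549 in DMSO, with a median of -0.03, and the 3 higher ones were called, against 3.52% of all genes. The other 4 were CDKN2A and the ribosomal protein genes RPL5, RPL11 and RPL23, down to -0.52. MDM2, SESN1 and CDKN1A rose in AD32 against A549 in DMSO by 1.62, 1.72 and 1.68, with adjusted p of 0.00746, 0.00771 and 0.0309. CDKN1A was at 10.28, 10.45 and 9.0 in AD32, at 10.21 and 9.79 in A549 in discodermolide and at 8.64, 7.59, 8.35 and 8.36 in A549 in DMSO. In A549 in discodermolide against A549 in DMSO, 3 of the 7 means were higher and 4 lower, with a median of -0.01, and 1 gene was called, against 0.372% of all genes. SESN1 rose by 1.94 (adjusted p = 0.0423, with 0.000307 to 0.364), and MDM2 and CDKN1A differed by 1.37 and 1.76 with adjusted p of 0.0993 and 0.133. The CDKN1A call in AD32 was lost under some alternatives (adjusted p of 0.00183 to 0.127), and those of MDM2 and SESN1 held under all that were run (0.000772 to 0.0332 and 0.000990 to 0.0345). A link between these genes and the members was not tested.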

How the data were processed

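Total RNA from 10 samples was labelled and hybridised to 1 Affymetrix array each, per the labels. The deposited values span the range of log2 signals and were taken as such. The submitters' processing notes name Affymetrix Expression Console as the software the authors used. Its version and its summarisation and scaling settings were not given in the sources used here. Detection calls and background estimates were not at hand, and precision is limited by the number of arrays.

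Names came from the platform annotation, in which 19262 of 24308 probe sets had 1 gene, 1720 several and 3326 none listed. Genes with over 1 probe set (740) used the one with the highest mean. All 10 arrays in 4 groups were fitted with lmFit and eBayes (limma 3.58.1, R 4.3.3). Two-sided p-values were adjusted over 18279 genes by Benjamini-Hochberg, with a threshold of 0.05. Summaries and plots used Python 3.11.15. On simulated data with 200 of 18279 genes changed by a log2 difference of 1, the step recovered 47.5% for AD32 against A549 in DMSO, 32.5% for A549 in discodermolide against DMSO, 25.0% for AD32 against senescent A549 and 0.0% for both comparisons of AD32 4E-BP1. At a difference of 2 it recovered 92.5%, 86.0%, 86.0%, 67.5% and 79.0%, in the same order with AD32 4E-BP1 against AD32 before A549 in DMSO. The changed genes were picked at random, and noise was drawn independently for each gene at its own spread. Shifts shared by many genes of an array were not simulated, so these shares are not the recovery to be had for the members.

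Levels on every array are given for MYC and for the gene with the smallest p of each role group in AD32 against A549 in DMSO. Genes outside the members were named by rule if they were EIF4EBP1, EIF4E or MKI67 or among those of their list past the threshold. Outside this rule, SERPINB5 and KRT7 were chosen after their values were seen. Other cell type markers, and the genes of the p53 list that were not called, were named to describe their lists. The members and lists were chosen with earlier results of these data known. The alternatives tried were quantile normalization on top of the deposited values, centring on the median, leaving out the 33.3% of genes with the lowest means, array weights, fits of only the groups compared, averaging a gene's probe sets, a block for the replicate number, the mean of A549 DMSO replicates 3 and 4 in place of both, and omission of each replicate in turn. Promoter sequences are from RefSeq, assembly GRCh38.p14.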

Additional observations from a re-analysis of the deposited data

Results flagged for a closer look

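In the A549 DMSO group, replicate 1 lay far from the other 3 arrays for many members. The measure is the gap from the lowest or highest array to its nearest neighbour, as a share of the group's whole range, with Dixon's 95% critical value for 4 arrays as the limit. Chance passes about 1 in 20 groups. Of the 33 measured members, 16 passed it (48.5%), against 2503 of 18279 genes (13.7%), all 16 with replicate 1 as the lowest array. The share was 0.912 for NOP58 and 0.865 for DKC1 among the small nucleolar RNP proteins, and 0.939 for NCL and 0.921 for NOLC1 among the nucleolar chaperones. Among the small-subunit factors it was 0.848 for RRP9, 0.837 for RRP12, 0.934 for UTP20, 0.925 for HEATR1, 0.888 for WDR43, 0.854 for WDR75, 0.925 for DDX10, 0.950 for TSR1 and 0.951 for NAT10. Among the large-subunit factors it was 0.973 for NOP16, 0.872 for RRP1B and 0.900 for GRWD1. The mean over the 33 members gave 0.849. For EIF4EBP1 the same array was the highest of its group, with a share of 0.934. Groups of 3 arrays or fewer, AD32 among them, were not tested in this way.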

How the results depend on the processing

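Over the 33 members and all alternatives, 2662 of 2739 results kept their side of the threshold and 77 passed it only under an alternative. The sign of the difference was the other one in 130 of the 2739, none of them past the threshold: 21 in AD32 against A549 in DMSO, 13 in A549 in discodermolide against DMSO, 46 in AD32 against A549 in discodermolide, 4 in AD32 4E-BP1 against AD32 and 46 in AD32 4E-BP1 against A549 in DMSO. The member median of AD32 against A549 in discodermolide changed sign with array weights (-0.05) and with the replicate block (-0.22). It also did so without AD32 replicate 3 (-0.23) and without A549 discodermolide replicate 2 (-0.02). In AD32 4E-BP1 against A549 in DMSO the median changed sign with array weights (-0.10) and without A549 DMSO replicate 1 (-0.06). The count of members called was 0 in every comparison with all arrays weighted alike. It was 23 with array weights in AD32 against A549 in DMSO, 27 in A549 in discodermolide against DMSO, 2 in AD32 against A549 in discodermolide and 3 in AD32 4E-BP1 against AD32. Leaving out 1 array gave 0 to 9 members called, 0 to 3, 0 to 2 and 0 to 2 in these comparisons, and 0 in AD32 4E-BP1 against A549 in DMSO. The member medians then ranged from -0.78 to -0.23, from -0.81 to -0.33, from -0.23 to 0.24, from 0.46 to 0.99 and, in the last, from -0.06 to 0.34.

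Counts over all genes also depended on the setting. In AD32 against A549 in DMSO, 1045 genes were called, against 4215 with array weights, 650 with the replicate number as a block, 525 with A549 DMSO replicates 3 and 4 averaged and 512 to 2164 without 1 array. In A549 in discodermolide against DMSO, 68 were called, against 36 without the genes of lowest mean, 4573 with array weights, 106 with the compared groups alone, 4 with the replicate block, 15 with the averaging and 8 to 643 without 1 array. In AD32 against A549 in discodermolide, 683 were called, against 1869 with array weights, 353 with the groups alone and 132 to 1215 without 1 array. In AD32 4E-BP1 against AD32, 168 were called, against 107 without the genes of lowest mean, 1282 with array weights, 13 with the groups alone, 99 with the averaging and 99 to 656 without 1 array. In AD32 4E-BP1 against A549 in DMSO, 0 were called, 3 with array weights and 0 without any 1 array. The cause of these changes was not tested, beyond the fewer genes or arrays that some settings hold.

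Whether the replicate numbers pair the samples could not be decided. Same-numbered deviations from the group means correlated at 0.677, -0.264 and 0.411 for AD32 and A549 in DMSO. They correlated at 0.064 and -0.058 for A549 in discodermolide and DMSO, and at 0.079 and 0.095 for AD32 and A549 in discodermolide. Deviations within such small groups depend on each other, so these values neither show nor exclude pairing. With the replicate block, 0 members were called and the member medians were -0.32, -0.10 and -0.22 in the first 3 comparisons. The array labelled AD32 4E-BP1 has no number, so its comparisons have no blocked value. Without detection calls, low signals could not be told from background.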
